A study of Mus musculus with 36 samples.

Results

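The 10 heat shock chaperone genes described here are Hspa1a, Hspa1b, Hsph1, Dnajb1, Hsp90aa1, Hspb1, Hspb7, Cryab, Hspd1 and Hspe1. They were taken from the arrays by symbol, with the brightest probe set of each gene over all arrays standing for the gene. All 10 passed the filter on low signals and were tested among 12626 genes in all. The study compared the RNA of adult mouse hearts in which different mitogen-activated protein (MAP) kinase routes had been switched on in heart muscle cells. It holds 36 Affymetrix arrays of left ventricle RNA in 13 groups of 2 or 3 arrays.

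MKK3bE, an active form of the kinase that switches on p38, had 2 female arrays early, and 2 female and 3 male arrays late. HRas-v12, an always active Ras protein that feeds the ERK route among others, had 2 female and 3 male arrays early and 3 of each sex late. MKK7D, an active form of the kinase that switches on JNK, had 3 female arrays at each time. Each of these transgenic mice carried a floxed transgene together with Mer-Cre-Mer, a Cre recombinase that tamoxifen switches on, and the alpha-MHC promoter of heart muscle drives both. The MKK7D line had 3 control females of its own at each time, and 3 female and 3 male control arrays without a time point in the labels served the other lines. Per the labels the controls were non-transgenic littermates, so against them the effect of Mer-Cre-Mer and that of the transgene cannot be told apart. MKK3bE and HRas-v12 hearts both carried Mer-Cre-Mer. All mice were of C57black background and received tamoxifen at 20 mg/kg on 3 days from 12 weeks of age. Hearts were taken 4 to 7 days (early) or 2 to 4 weeks (late) after the first injection.

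Heat shock proteins hold unfolded proteins, refold them or pass them on for degradation. The Hsp70 proteins encoded by Hspa1a and Hspa1b are made in large amounts under stress, when heat shock factor 1 binds repeats of the sequence GAA and its reverse complement in their promoters. J-domain proteins such as Dnajb1 deliver clients to Hsp70, and Hsp110 proteins such as Hsph1 release its nucleotide so that the client can leave. Hsp90aa1 is the stress-inducible cytosolic Hsp90. Small heat shock proteins bind unfolding proteins without using ATP. Hspb1 (Hsp27) is phosphorylated by kinases that p38 switches on, Cryab (alpha B-crystallin) protects desmin and other filaments of the muscle cell, and Hspb7 is enriched in heart and skeletal muscle. Hspd1 (Hsp60) and Hspe1 (Hsp10) form the folding chamber of the mitochondrial matrix.

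The promoters are shown because heat shock factor 1 binds repeats of GAA and its reverse complement, and because Hspa1a and Hspa1b are close copies. RefSeq promoter windows (250 bases before to 50 after a start, build GRCm38.p6) were matched for 8 of the 10 genes, and each line gives the 150 bases before the start, 5′ to 3′. Capitals mark every match to a heat shock pair, GAANNTTC or TTCNNGAA, searched on both strands, since each form is its own reverse complement. In Hspe1 the capitals also hold 2 overlapping matches to the longer triplet, GAANNTTCNNGAA or TTCNNGAANNTTC. The Hspa1a stretch lies at chr17:34972157-34972306 on the minus strand, the Hsph1 stretch at chr5:149636316-149636465 on the minus strand, the Hspb1 stretch at chr5:135887769-135887918 on the plus strand and the Hspe1 stretch at chr1:55087998-55088147 on the plus strand.
Hspa1a: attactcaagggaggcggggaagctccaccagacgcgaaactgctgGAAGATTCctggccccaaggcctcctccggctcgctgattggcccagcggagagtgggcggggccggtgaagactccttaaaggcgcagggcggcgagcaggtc
Hsph1: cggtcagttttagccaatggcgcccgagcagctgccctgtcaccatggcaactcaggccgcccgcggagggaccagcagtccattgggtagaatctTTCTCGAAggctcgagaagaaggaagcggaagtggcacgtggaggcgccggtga
Hspb1: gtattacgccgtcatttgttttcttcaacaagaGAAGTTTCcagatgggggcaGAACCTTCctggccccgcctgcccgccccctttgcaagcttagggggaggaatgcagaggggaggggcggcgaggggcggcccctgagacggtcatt
Hspe1: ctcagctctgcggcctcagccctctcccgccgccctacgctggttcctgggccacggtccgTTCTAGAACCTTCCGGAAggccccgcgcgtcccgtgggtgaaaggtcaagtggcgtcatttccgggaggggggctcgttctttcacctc
The matching stretch of Hspa1b, at chr17:34959239-34959388 on the minus strand, is identical to that of Hspa1a at 149 of its 150 bases and holds the same pair. Hsph1 also has a triplet 15 to 27 bases after this start, TTCTGGAAAGTTC, at chr5:149636288-149636300 on the minus strand. A pair occurred in 6 of the 8 genes with a window (Hspa1a, Hspa1b, Hsph1, Hspb1, Hspd1 and Hspe1), against 17% of 27025 mouse genes. A triplet, which contains pairs, occurred in 3 (Hsph1, Hspd1 and Hspe1), against 0.662% of genes. Hspd1 and Hspe1 lie next to each other. Of the 2 Hspd1 windows, 1 shares 285 bases with the Hspe1 window, so their matches are the same bases. The other Hspd1 window shares 4 bases with it and holds no match. No match was found in the windows of Dnajb1 and Hspb7. A match is a string of letters and not a measured binding site, and its part in the changes was not tested.

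**Figure D1:**
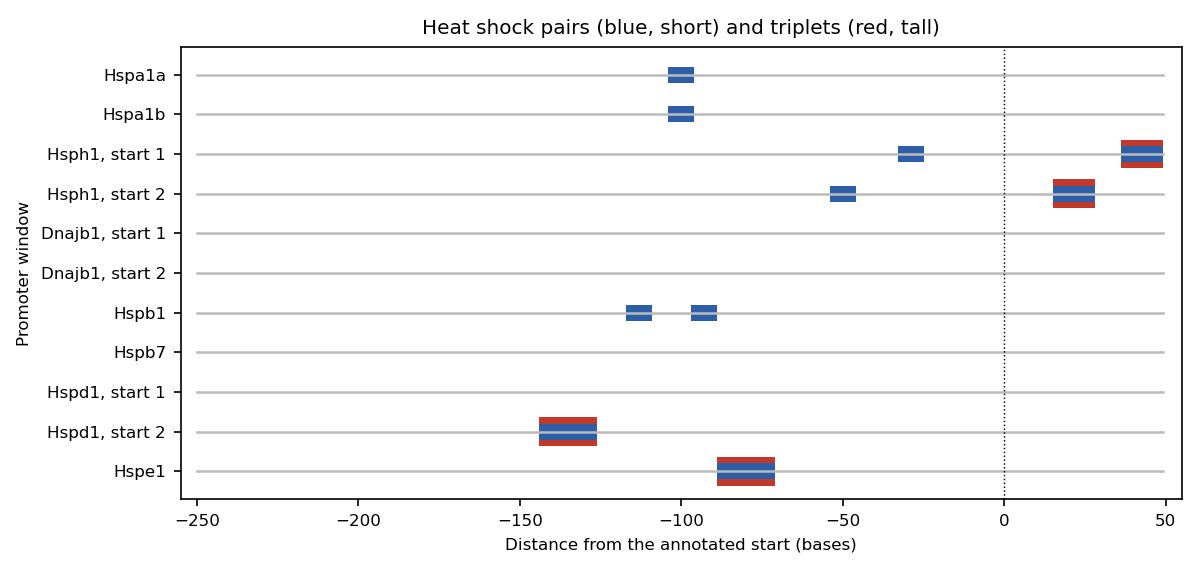
Positions of heat shock pairs and triplets in the promoter windows, in bases from the annotated start, with 1 line per window. The pair lies at positions -104 to -97 in both Hspa1a and Hspa1b, and triplets lie in the windows of Hsph1 and Hspe1 and in 1 of the 2 windows of Hspd1.

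Signals are the deposited intensities on a linear scale, which compare arrays for a probe set and never 1 probe set with another. Changes are differences of log2(signal + 32), with limma adjusted p-values over all 12626 genes, and a gene was called under 0.05. The median signal per array ran from 593.5 to 798.6, and correlations between arrays from 0.889 to 0.962. The labels do not state whether the arrays came from different animals, and p-values then cover only the spread among arrays. In pieces of whole ventricle, fewer cells of a type and less RNA per cell cannot be told apart. Map2k3, the mouse gene of the kinase in MKK3bE, differed from control by 0.14 early (adjusted p = 0.703) and 0.10 late (adjusted p = 0.687) in limma, and whether these probes register the transgene's RNA was not tested. Hras and Map2k7 were not analysed here.

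Esr1, part of whose sequence Mer-Cre-Mer carries, went against the label on 5 arrays. It read 688 in HRas-v12 female early replicate 3, 2915 in HRas-v12 male late replicate 1 and 1327 in HRas-v12 male late replicate 3, against 12437 to 155949 in the remaining transgenic arrays. It read 106402 and 91291 in the libraries labelled MKK7D control late replicates 8 and 9, against 294 to 7943 in the remaining controls. Replicate 1 of the early MKK7D controls, labelled female, had a male pattern, with 6018 for the Y-linked Eif2s3y. Results are given with all arrays kept as labelled, and then without these 6 arrays. Without them HRas-v12 female early and HRas-v12 male late rest on 1 array each, as does the late MKK7D control, and a lone array was assumed to vary like the other groups.

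Hspa1a and Hspa1b were several times higher in MKK3bE hearts than in HRas-v12 hearts at both times, and Hspb1 was higher as well. Early, 3 of the 10 genes rose against HRas-v12 and none fell, in a comparison where 1.35% of all genes tested rose and 0.451% fell. Late, 6 of 10 rose and none fell, against 2.04% of all genes that rose and 1.92% that fell. The median change over the 10 genes was 0.60 early, against -0.03 over all genes tested, and 0.38 late, against -0.02. Dnajb1, Hsp90aa1, Hspd1 and Hspe1 were not called at either time.

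**Figure D2:**
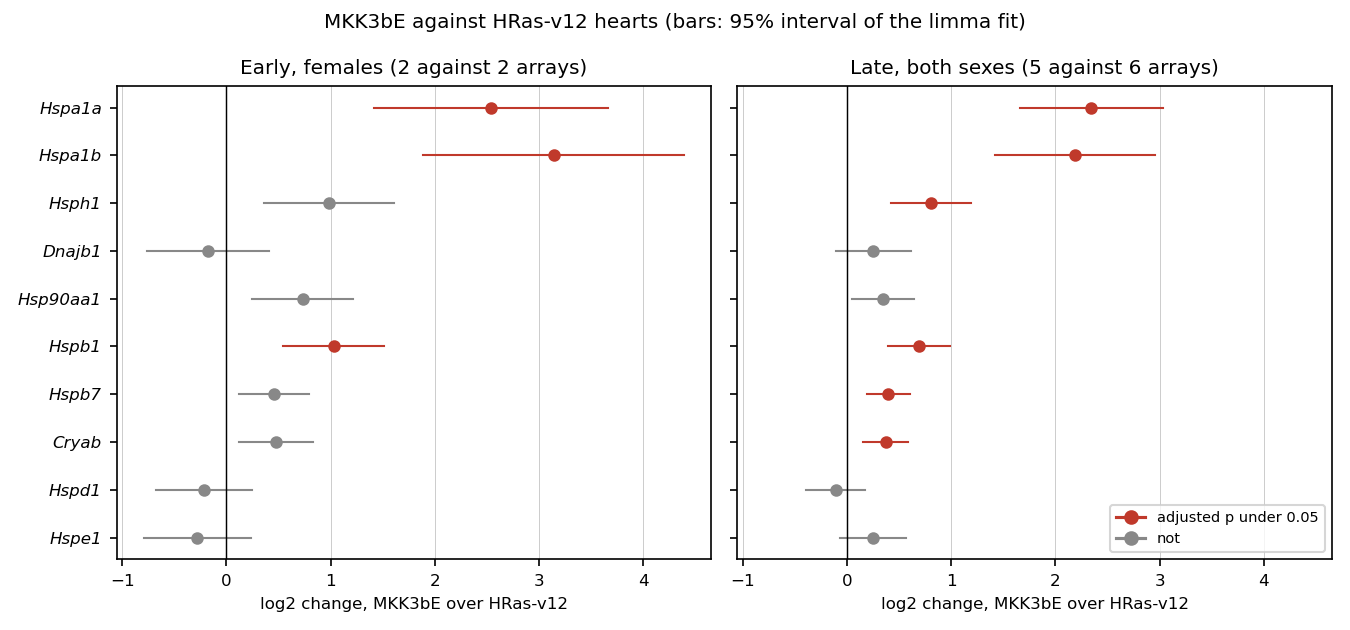
Log2 change of each of the 10 genes in MKK3bE hearts against HRas-v12 hearts, early (females) and late (mean of both sexes), with 95% confidence intervals from limma. Hspa1a and Hspa1b lie between 2.19 and 3.14, and the mitochondrial pair lies around 0.

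Hspa1a, one of the 2 neighbouring genes for stress-inducible Hsp70, read 6604 and 6029.7 in the MKK3bE early females, against 1007 and 1116 in the HRas-v12 early females. Late, it read 4019.8 and 3829.7 in MKK3bE females and 6629, 4579 and 6506 in MKK3bE males, against 745, 1441 and 816 in HRas-v12 females and 711, 1467 and 642 in HRas-v12 males. Every MKK3bE array lay above every HRas-v12 array. The change was 2.54 early (SE 0.55, 95% confidence interval 1.42 to 3.66, 5.81-fold, adjusted p = 0.012, limma) and 2.34 late (SE 0.33, 5.07-fold, adjusted p = 0.000126, limma). In the 6 shared control arrays Hspa1a ran from 730.4 to 2152 with a median of 1233, so the MKK3bE arrays lay above the range of the controls and the HRas-v12 arrays in or below it.

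Hspa1b, its near-identical neighbour, gave 19196 and 21258 in the MKK3bE early females, against 3178 and 1606 in the HRas-v12 early females. Late, the MKK3bE females read 10628 and 6347 and the MKK3bE males 18437, 11576 and 18626, against 2098, 4197 and 3045 in HRas-v12 females and 1685, 4251 and 1185 in HRas-v12 males. Again no MKK3bE array overlapped any HRas-v12 array, the lowest MKK3bE array reading 6347 and the highest HRas-v12 array 5021. The change was 3.14 early (SE 0.61, 8.82-fold, adjusted p = 0.00515, limma) and 2.19 late (SE 0.37, 4.56-fold, adjusted p = 0.000885, limma). The other 2 Hspa1b probe sets gave 3.15 and 2.86 early and 2.18 and 2.21 late. Over the 36 arrays the Hspa1a and Hspa1b values had a Pearson correlation of 0.89, and 0.87 once group means were removed. The coding sequences of these genes are so alike that a probe set may pick up both RNAs, and how far each gene contributes was not tested.

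**Figure D3:**
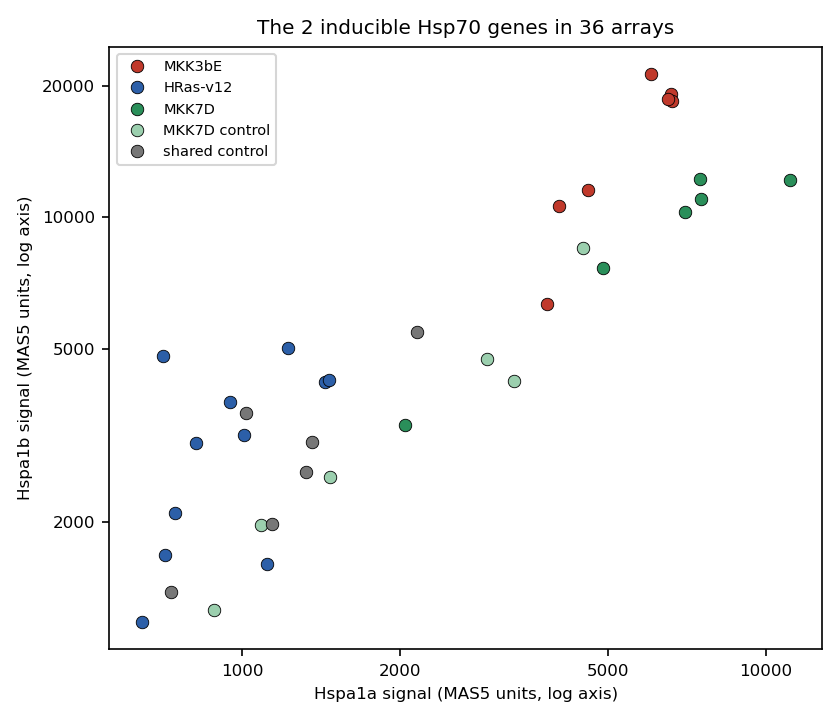
Hspa1a signal (horizontal) against Hspa1b signal (vertical), both in MAS5 units on log axes, in each of the 36 arrays, marked by line. The 7 MKK3bE arrays lie to the upper right of the 11 HRas-v12 arrays, as do 5 of the 6 MKK7D transgenic arrays.

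Hsph1, the Hsp110 that works with Hsp70, was the remaining gene for which the lines did not overlap at all. It ran from 9871 to 13481 with a median of 11283 in the 7 MKK3bE arrays, against 3374 to 8824 with a median of 6851 in the 11 HRas-v12 arrays. The change was 0.99 early (SE 0.30, adjusted p = 0.0985, limma), which was not called, and 0.80 late (SE 0.19, 1.74-fold, adjusted p = 0.0121, limma). Thus 3 of the 10 genes were higher in every MKK3bE array than in every HRas-v12 array, against 0.673% of all genes tested, and none was lower in every MKK3bE array, against 0.364%.

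Hsph1 of MKK3bE hearts was not called against control (0.34 early, adjusted p = 0.491, and 0.21 late, adjusted p = 0.515, limma). The second Hsph1 probe set gave smaller values, 0.52 early and 0.47 late for MKK3bE against HRas-v12.

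Dnajb1, the J-domain partner of inducible Hsp70, overlapped in full between the lines. It ran from 4343 to 6985 in MKK3bE arrays and from 3977 to 7409 in HRas-v12 arrays. The change was -0.18 early (95% confidence interval -0.77 to 0.41, adjusted p = 0.833, limma) and 0.25 late (-0.11 to 0.61, adjusted p = 0.487, limma). Hsp90aa1 read 50192 and 46525 in MKK3bE early females, against 31293 and 27024 in HRas-v12 early females, with no overlap. Its change of 0.73 early (0.25 to 1.22, adjusted p = 0.122, limma) was not called, nor was that of 0.35 late (0.05 to 0.65, adjusted p = 0.192, limma). HRas-v12 early males, which have no MKK3bE counterpart, read 41168 to 46585 for Hsp90aa1 and so lay within the MKK3bE range.

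The 3 small heat shock proteins were higher in MKK3bE than in HRas-v12 hearts late, and Hspb1 also early. Hspb1 read 126718 and 119424 in MKK3bE early females, against 49112 and 73980.1 in HRas-v12 early females. Late, it read 77499 and 102972 in MKK3bE females and 114791, 89563 and 99904 in MKK3bE males, against 65479.8, 56368 and 56331 in HRas-v12 females and 61543, 53596 and 60048 in HRas-v12 males. The groups did not overlap at either time within a sex, but 1 HRas-v12 early male reached 110794. The change was 1.03 early (SE 0.24, 2.04-fold, adjusted p = 0.0193, limma) and 0.69 late (SE 0.15, 1.62-fold, adjusted p = 0.00509, limma). The second Hspb1 probe set gave 1.29 and 0.83.

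Hspb7 and Cryab, both very bright on these arrays, differed by less. Hspb7 ran from 120895 to 156159 in the 5 MKK3bE late arrays, against 84237 to 122309 in the 6 HRas-v12 late arrays, so that the lowest MKK3bE array lay just under the highest HRas-v12 array. Its change was 0.40 late (SE 0.10, 1.32-fold, adjusted p = 0.022, limma) and 0.46 early (adjusted p = 0.174, limma). Cryab ran from 124275 to 160906 in the MKK3bE late arrays, against 84473 to 130117 in the HRas-v12 late arrays. Its change was 0.37 late (SE 0.11, 1.29-fold, adjusted p = 0.0456, limma) and 0.47 early (adjusted p = 0.189, limma). Over all 36 arrays Hspb7 and Cryab had a Pearson correlation of 0.84 across arrays that share their groups, and 0.77 within groups.

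Hspd1 and Hspe1, the mitochondrial pair, were not called between the lines. Hspd1 changed by -0.22 early (95% confidence interval -0.68 to 0.24, adjusted p = 0.711, limma) and -0.11 late (-0.39 to 0.17, adjusted p = 0.731, limma). Hspe1 changed by -0.28 early (-0.80 to 0.24, adjusted p = 0.661, limma) and 0.25 late (-0.06 to 0.57, adjusted p = 0.417, limma).

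Without the 6 arrays the comparison of MKK3bE with HRas-v12 kept its direction for the Hsp70 pair and Hspb1. Early, with 2 MKK3bE arrays and 1 HRas-v12 array, 6 of 10 genes were called, against 4.39% of all genes, with Hspa1a at 2.61, Hspa1b at 2.66, Hspb1 at 1.32, Hsph1 at 1.12, Cryab at 0.66 and Hspb7 at 0.63. Late, 4 were called, against 6.45% of all genes: Hspa1a at 2.56 (adjusted p = 0.000238), Hspa1b at 2.58 (adjusted p = 0.000379), Hspb1 at 0.67 (adjusted p = 0.0224) and Hsp90aa1 at 0.45 (adjusted p = 0.0453), all by limma. The late calls of Hsph1 (0.51, adjusted p = 0.116), Hspb7 (0.29, adjusted p = 0.111) and Cryab (0.30, adjusted p = 0.0879) were lost, again by limma. Leaving out single arrays, the late calls of Hspa1a and Hspa1b held in every fit. The early ones rested on 4 arrays, and both were lost without either MKK3bE early female, that of Hspa1a without HRas-v12 female early replicate 1 and that of Hspa1b without replicate 3. The early Hspb1 call was lost without either MKK3bE early female or HRas-v12 female early replicate 1, and the late calls of Hsph1, Hspb1 and Hspb7 without MKK3bE female late replicate 3. The late Hspb7 call was also lost without HRas-v12 female late replicate 2 or MKK3bE male late replicate 4. The late Cryab call was lost in 14 of 19 alternatives.

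Markers of other cells were set beside this comparison. Of the 8 heart muscle markers none was called between MKK3bE and HRas-v12 (median change 0.30 early and 0.18 late), and none of 8 fibroblast markers was called (median 0.95 early and 0.06 late). The summed fibroblast marker signal ran from 522490 to 622524 in MKK3bE early females, against 219773 to 510671 in HRas-v12 early females. The summed heart muscle marker signal ran from 1001631 to 1227200 in MKK3bE early females, against 769720 to 1103998 in HRas-v12 early females. Their part in the result was not tested.

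**Figure D4:**
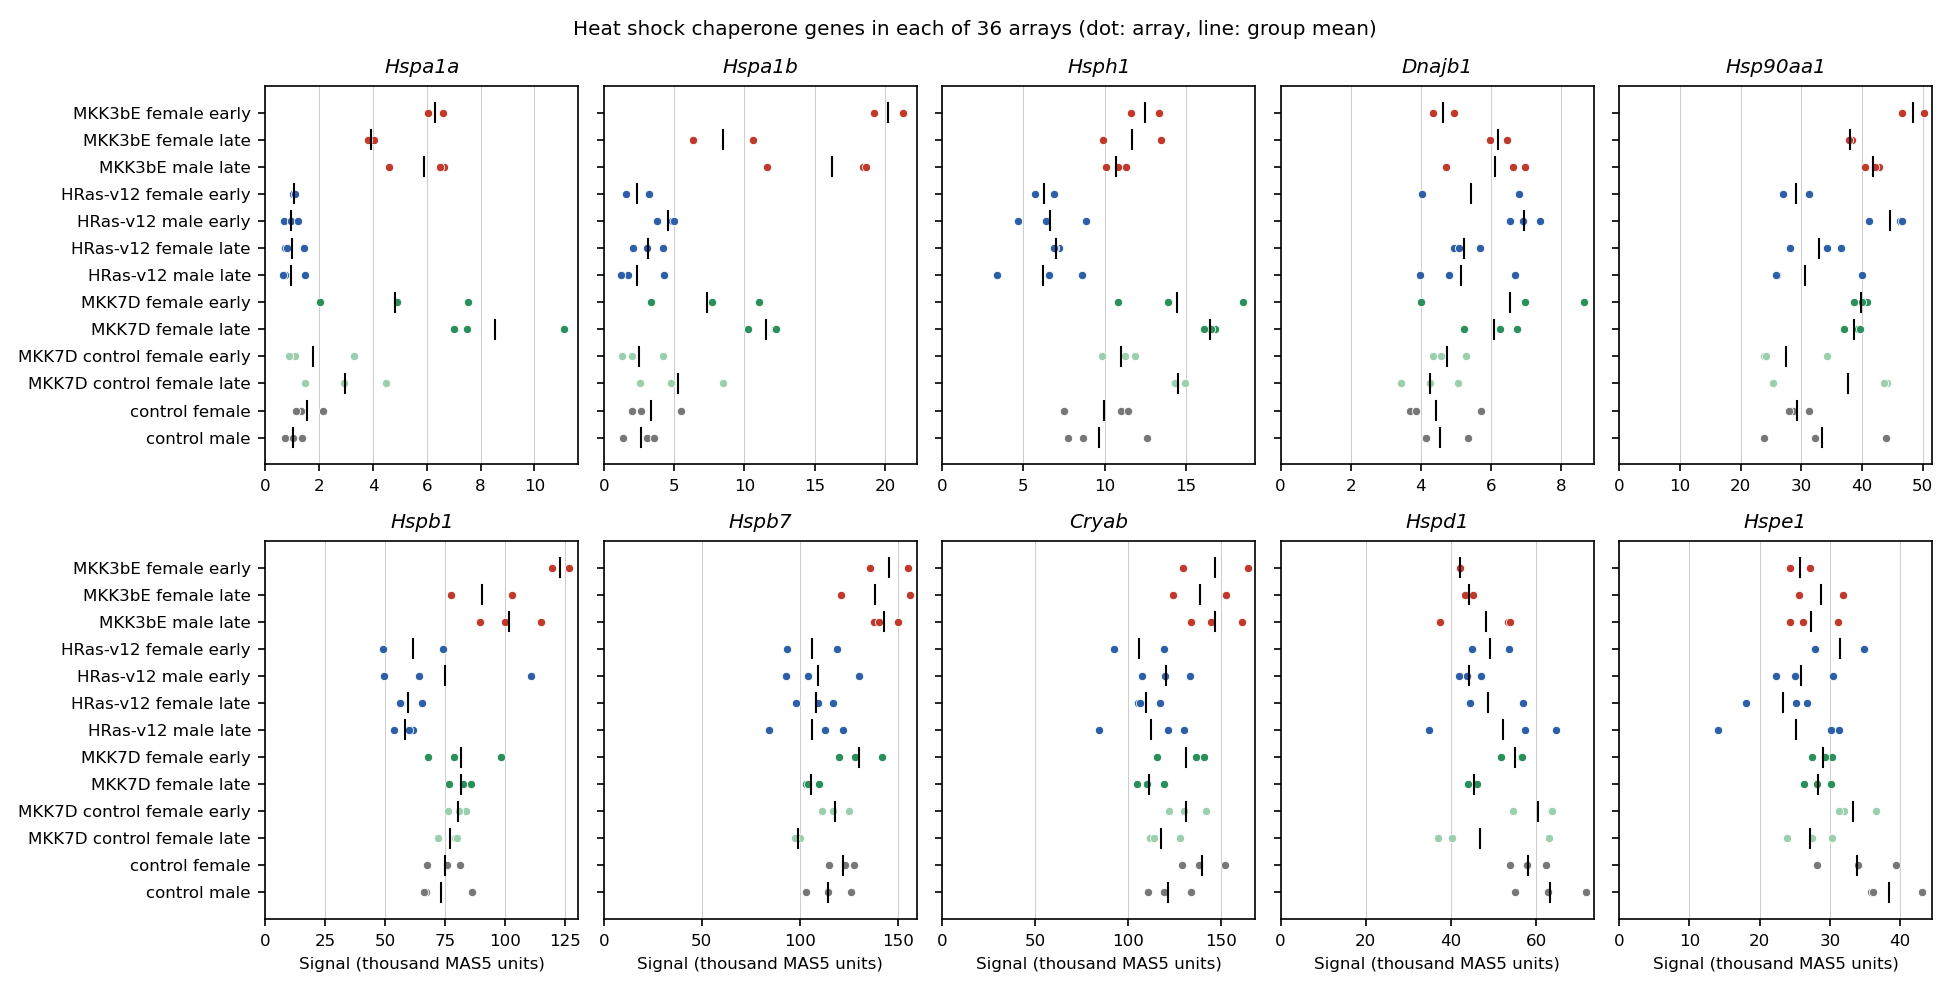
Signal (horizontal) of each of the 10 genes in every array, with groups as rows, a bar at the group mean and transgenic groups above the controls. The MKK3bE points of Hspa1a and Hspa1b lie to the right of all HRas-v12 points, while those of Dnajb1, Hspd1 and Hspe1 overlap.

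Against the shared controls, MKK3bE hearts had more Hspa1a and Hspa1b RNA at both times. Early, 4 of 10 genes rose and none fell, where 3.48% of all genes rose and 2.78% fell. Late, 2 rose and none fell, where 5.06% of all genes rose and 5.39% fell. Early, Hspa1a changed by 2.07 (SE 0.50, 4.19-fold, adjusted p = 0.014) and Hspa1b by 2.71 (SE 0.56, 6.57-fold, adjusted p = 0.0051) in limma. Hsp90aa1 (0.72, 1.65-fold, adjusted p = 0.0426) and Hspb1 (0.72, 1.65-fold, adjusted p = 0.0436) also rose early by limma. Late, Hspa1a changed by 1.94 (SE 0.33, 3.84-fold, adjusted p = 0.000705) and Hspa1b by 2.04 (SE 0.37, 4.12-fold, adjusted p = 0.0012) in limma. These are means of both sexes. Late females alone gave 1.38 (adjusted p = 0.146) and 1.42 (adjusted p = 0.183), which were not called, in limma. Late males alone gave 2.50 (adjusted p = 0.00324) and 2.66 (adjusted p = 0.00406) in limma.

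Hspa1a ran from 3829.7 to 6629 in the 7 MKK3bE arrays, against 1326, 1139 and 2152 in control females and 1361, 730.4 and 1015 in control males. Hspa1b ran from 6347 to 21258 in the MKK3bE arrays, against 2609, 1985 and 5461 in control females and 3063, 1386 and 3556 in control males. Both genes were higher in all 7 MKK3bE arrays than in all 6 control arrays, against 3.88% of all genes. Hspd1 was the gene on the other side: its 7 MKK3bE arrays, at 37436 to 53813, all lay below the 6 control arrays, at 53864 to 71608, which held for 5.08% of all genes. The Hspd1 change was -0.46 early (adjusted p = 0.178, limma) and -0.40 late (adjusted p = 0.0638, limma), so it was not called. Hspe1 changed by -0.38 early (adjusted p = 0.327, limma) and -0.36 late (adjusted p = 0.13, limma).

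The other cytosolic genes of MKK3bE late hearts had positive changes from control that were not called, among them Dnajb1 at 0.47 (adjusted p = 0.0863), Hsp90aa1 at 0.38 (adjusted p = 0.0959), Hspb1 at 0.37 (adjusted p = 0.103) and Hspb7 at 0.25 (adjusted p = 0.114) in limma. The other 2 Hspb7 probe sets gave 0.74 and -0.13 there. Other probe sets above the filter gave 0.64 and 0.58 for Hsp90aa1, 0.64 for Hspb1 and 0.15 for Dnajb1. Cryab, higher late than in HRas-v12 hearts, changed from control by 0.07 early (adjusted p = 0.842) and 0.13 late (adjusted p = 0.472) in limma. Late females alone gave -0.02 for Cryab and late males 0.27. With the mean of a gene's probe sets Hsp90aa1 and Hspb1 were also called, in a fit that called 1163 of 12626 genes. Without the 6 arrays, none of which belongs to MKK3bE or to the shared controls, the spread estimate was smaller. The changes were the same but 7 of 10 genes were then called late, against 20.4% of all genes, with Dnajb1, Hsp90aa1 and Hspb7 added as higher and Hspd1 and Hspe1 as lower. Early, 5 were called, against 16.4% of all genes. Among single arrays, leaving out MKK3bE female early replicate 2 ended all 4 early calls, and the early Hspa1a call was also lost without replicate 1 (2.00, adjusted p = 0.109, limma). The early Hsp90aa1 and Hspb1 calls were lost without any 1 of the 5 arrays compared, and in 9 and 8 of 13 alternatives in all. The late calls of Hspa1a and Hspa1b held without any single array. Of the 8 fibroblast markers 5 rose in MKK3bE early hearts (median change 1.61) and 4 late, and none of the 8 heart muscle markers was called (median -0.30 early and -0.19 late). Their part in the result was not tested.

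**Figure D5:**
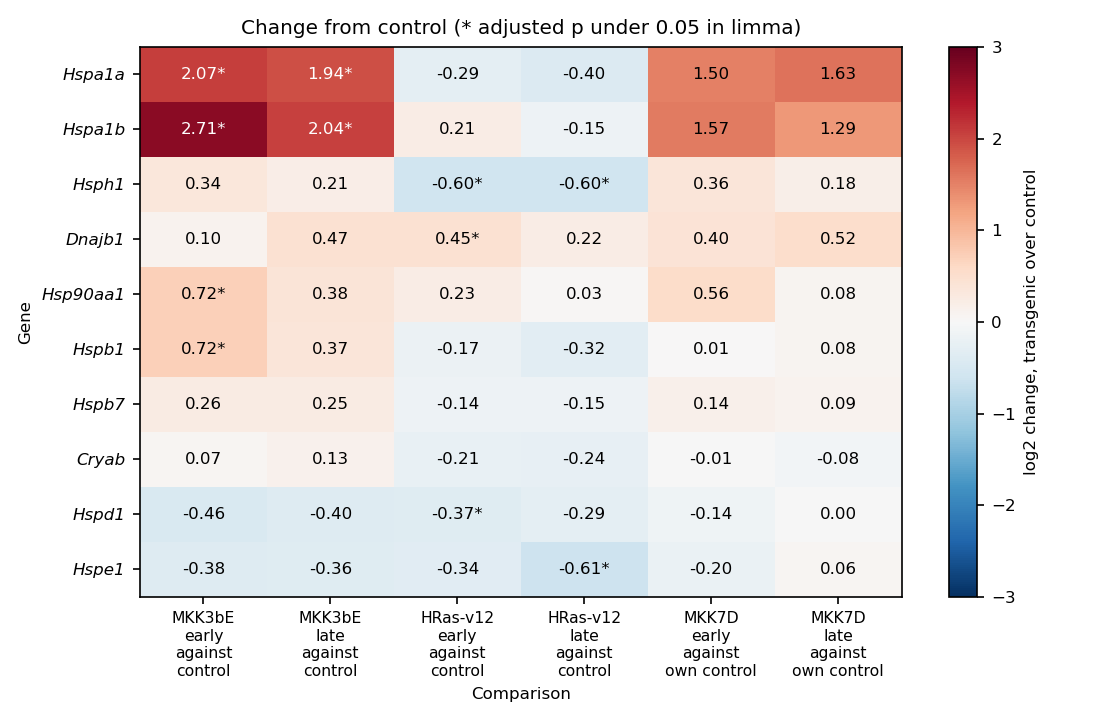
Log2 change of the 10 genes (rows) from control in each line and time (columns), with called changes marked. The changes of Hspa1a and Hspa1b from control are positive in MKK3bE and MKK7D hearts, and those of Hsph1, Hspd1 and Hspe1 are negative in HRas-v12 hearts.

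HRas-v12 hearts had lower Hsph1 than control at both times, and no change of the Hsp70 pair was called. Early, 1 of 10 genes rose and 2 fell, which is near the share of all genes, of which 15.1% rose and 18.7% fell. Late, none rose and 2 fell, where 4.86% of all genes rose and 4.66% fell. No member was higher or lower in every HRas-v12 array than in every shared control array, against 0.0792% and 0.246% of all genes. Hsph1 ran from 4660.3 to 8824 in the 5 early and from 3374 to 8608 in the 6 late HRas-v12 arrays, against 7508 to 12605 in the 6 controls. It changed by -0.60 at both times (SE 0.19, 1.52-fold lower, adjusted p = 0.0137 early, and SE 0.18, 1.51-fold lower, adjusted p = 0.0339 late, limma). The ranges overlapped with those of control, and in the second Hsph1 probe set the changes were -0.28 early and -0.21 late. The early Hsph1 call was lost in 2 of 19 alternatives and the late one in 10 of 20.

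Dnajb1 rose early by 0.45 (1.36-fold, adjusted p = 0.0493, limma) and gave 0.22 late (adjusted p = 0.408, limma). Its second probe set gave 0.05 early, and the early call was lost in 14 of 19 alternatives. Hspd1 fell by 0.37 early (1.30-fold lower, adjusted p = 0.037, limma), a call lost in 10 of 19 alternatives, and late its change was -0.29 (adjusted p = 0.146, limma). Hspe1 changed by -0.34 early (adjusted p = 0.0944, limma) and fell by 0.61 late (1.53-fold lower, adjusted p = 0.0167, limma). Late HRas-v12 hearts read 18081, 25247 and 26716 for Hspe1 in females and 30212, 14105 and 31335 in males, against 33998, 39403 and 28156 in control females and 43075, 35791 and 36177 in control males. The lowest of these, 14105, is the library labelled HRas-v12 male late replicate 3, and without it the call was lost.

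For Hspa1a the changes in HRas-v12 hearts were -0.29 early (95% confidence interval -0.97 to 0.40) and -0.40 late (-1.05 to 0.25), and for Hspa1b 0.21 early (-0.55 to 0.98) and -0.15 late (-0.87 to 0.58). The small heat shock proteins gave -0.17 early and -0.32 late for Hspb1, -0.14 and -0.15 for Hspb7 and -0.21 and -0.24 for Cryab, with adjusted p-values of 0.114 to 0.383 by limma. The other 2 Hspb7 probe sets above the filter disagreed in direction, at 0.24 and -0.46 early and 0.22 and -0.53 late. Quantile normalization turned the early values of Hspb7 and Cryab to rises of 0.24 (adjusted p = 0.0117) and 0.19 (adjusted p = 0.0113) in limma.

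When the 6 arrays were left out, 5 of the 10 genes were called early in HRas-v12, against 42.3% of all genes: Dnajb1 was higher at 0.63, and Hsph1 (-0.67), Cryab (-0.30), Hspd1 (-0.44) and Hspe1 (-0.42) were lower. Late, none of the 10 was called, with Hsph1 at -0.31 (adjusted p = 0.452, limma) and Hspe1 at -0.41 (adjusted p = 0.106, limma), where 1.24% of all genes were called. The early count without the 6 arrays is near its share of all genes. Leaving out HRas-v12 female early replicate 1 alone ended all 3 early calls made with every array. All 8 heart muscle markers fell in HRas-v12 early hearts (median -0.55) and 5 of 8 late (median -0.35), while 6 of 8 fibroblast markers rose early and 4 late. Macrophage markers rose in 6 of 8 early, and endothelial markers fell in 6 of 7. Their part in the result was not tested.

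MKK7D hearts had high Hspa1a and Hspa1b signals too, but their own controls were spread. No member was called at either time, where 0.135% of all genes were called early and 0% late, and 3 of 10 had an unadjusted p under 0.05 at each time in limma, against 10.7% of all genes early and 5.09% late. Hspa1a read 7526, 4884 and 2046 in early MKK7D females, against 1085, 3302 and 884 in their controls. Late it read 7023, 11114 and 7479.6 in MKK7D females, against 2932, 4473 and 1472 in the controls. The groups overlapped early and did not overlap late. The change was 1.50 early (95% confidence interval 0.59 to 2.41, adjusted p = 0.147, limma) and 1.63 late (0.71 to 2.54, adjusted p = 0.536, limma).

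Hspa1b read 11009, 7659.5 and 3346 early and 10276, 12152 and 12219 late in MKK7D females, against 1978, 4209 and 1262 early and 4743, 8486 and 2544 late in their controls. The change was 1.57 early (adjusted p = 0.197, limma) and 1.29 late (adjusted p = 0.901, limma). Of the 3 late controls the 2 with a high Esr1 signal gave the 2 highest values of both genes. With 1 late control left after removal of the 6 arrays, Hspa1a changed by 2.48 (adjusted p = 0.0196, limma), the 1 called gene of the 10, against 3.39% of all genes. Hspa1b then changed by 2.16 (adjusted p = 0.0544, limma). Early, Hspa1a was called without MKK7D control early replicate 2 alone (adjusted p = 0.02, limma), and without the 6 arrays no member was called, against 0.974% of all genes.

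The other members were not called in MKK7D hearts either, and of their 16 changes the largest were 0.56 for Hsp90aa1 early (95% confidence interval 0.16 to 0.95, adjusted p = 0.25, limma) and 0.52 for Dnajb1 late (0.04 to 1.00, adjusted p = 0.977, limma). Hsp90aa1 ran from 38753 to 40767 in early MKK7D females, against 23939 to 34248 in their controls, and Dnajb1 from 5219 to 6751 in late MKK7D females, against 3445 to 5067 in their controls. Neither gene's groups overlapped. Early, 1 member (Hsp90aa1) was higher in every MKK7D array than in every control, against 11.3% of all genes, and 1 (Hspe1) was lower, against 12.1%. Late, 5 members (Hspa1a, Hspa1b, Hsph1, Dnajb1 and Hspb7) were higher in every array, against 6.98% of all genes, and none was lower, against 5.53%. Hspb1 differed by 0.01 early (95% confidence interval -0.39 to 0.41) and 0.08 late (-0.31 to 0.48). None of the 8 heart muscle markers was called in MKK7D hearts at either time.

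Since the lines had different controls, their changes from control were compared as differences of differences in females. For MKK3bE against MKK7D this was 0.57 for Hspa1a (95% confidence interval -0.81 to 1.94, adjusted p = 0.828) and 1.15 for Hspa1b (-0.39 to 2.68, adjusted p = 0.673) early, and -0.24 (-1.61 to 1.13) and 0.13 (-1.41 to 1.66) late, all from limma. These intervals leave room for differences of over 1 on the log2 scale in either line's favour late. For Hspb1 early the difference was 0.71 (0.12 to 1.31, adjusted p = 0.419, limma). No member was called in these comparisons, where 0.0713% of all genes were called early and 0.0634% late. For HRas-v12 against MKK7D, Hspa1a gave -1.97 early (-3.34 to -0.60, adjusted p = 0.277) and -2.24 late (-3.53 to -0.95, adjusted p = 0.197) in limma. There, too, no member was called, and 0% of all genes were called at both times, with an unadjusted p under 0.05 for 3 members early and 2 late, against 10% and 13.4% of all genes, in limma. The late Hspa1a value of HRas-v12 against MKK7D was called as lower without the 6 arrays, the 1 member called, against 0.776% of all genes.

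Time and sex made no called difference for the members. In MKK3bE females Hspa1b was lower late than early by 1.29 on the log2 scale (95% confidence interval of the change -2.55 to -0.04, adjusted p = 0.817, limma), and Hspa1a changed by -0.68 (adjusted p = 0.961, limma), where 0.00792% of all genes were called. In HRas-v12 hearts the smallest adjusted p was that of Hspe1, at 0.256 for a change of -0.28 (limma), where 11.6% of all genes were called. Without the 6 arrays Dnajb1 was called there as lower late than early, where 26.1% of all genes were called. In MKK7D hearts the late change was not called as different from the early change for any member, where 0.0158% of all genes were called. Late MKK3bE males against HRas-v12 males gave 2.69 for Hspa1a (adjusted p = 0.00165) and 2.93 for Hspa1b (adjusted p = 0.00199), and females gave 2.00 (adjusted p = 0.0521) and 1.45 (adjusted p = 0.291), in limma. The sex difference in the change of late MKK3bE hearts from control was 1.11 for Hspa1a and 1.24 for Hspa1b (adjusted p = 0.994 for both, limma), where 0.00792% of all genes were called. No member was called for the sex difference of HRas-v12 hearts, where 1.1% of all genes were called early and 0% late (7.83% had an unadjusted p under 0.05 in limma).

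Ordered by group mean, Hspa1a was highest in MKK7D late females at 8539 ± 2242 (SD, n = 3), followed by MKK3bE early females at 6317 ± 406 (SD, n = 2) and MKK3bE late males at 5905 ± 1150 (SD, n = 3). It was lowest in HRas-v12 late males at 940 ± 457 (SD, n = 3). Hspa1b was highest in MKK3bE early females at 20227 ± 1458 (SD, n = 2), then in MKK3bE late males at 16213 ± 4017 and MKK7D late females at 11549 ± 1103 (SD, n = 3 each). Of the 12 pairs of neighbours in each order, the array ranges overlapped in 10 for Hspa1a and 11 for Hspa1b. The 2 gaps of Hspa1a lay below MKK7D late females and below control females. In Hsph1 the 3 MKK7D late females led at 16483 ± 345 (SD, n = 3), and the 4 HRas-v12 groups took the last 4 places. For Dnajb1, Hsp90aa1, Cryab and Hspe1 all 12 neighbouring pairs overlapped.

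Some members varied together across the arrays. These correlations are descriptions over 36 arrays that share 13 groups. Hspd1 and Hspe1 had a Pearson correlation of 0.63 (0.52 within groups), and Hspb1 and Hspb7 one of 0.73 (0.64 within groups). Hspa1b and Hsp90aa1 had 0.79 (0.73 within groups). Against Hspd1 the values ran the other way, at -0.56 for Hspa1b (-0.56 within groups) and -0.65 for Hsp90aa1 (-0.61 within groups). Over the 13 group means, the genes most like the inducible cytosolic chaperones were Synpo2l (0.96), which binds actin at the Z-disc, Zfp568 (0.96), Dok7 (0.95), Cox19 (0.95) and Enah (0.94), an actin regulator. Those most like the small heat shock proteins were Rps9 (0.89), Ehbp1l1 (0.88), Tfb2m (0.87), Mia3 (0.87) and Spice1 (0.85). Those most like the mitochondrial pair were Ndufb6 (0.96), a subunit of respiratory complex I, Mrpl12 (0.94) and Mrps17 (0.94), of the mitochondrial ribosome, Micos10 (0.94), of the cristae junctions, and Mtres1 (0.93).

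Among 33 other cytosolic chaperones and co-chaperones, 30 were tested. In MKK3bE against HRas-v12, 1.35% of all genes rose and 0.451% fell early, and 2.04% rose and 1.92% fell late. Of the 30, 1 rose early (list median 0.04) and 4 rose late (list median 0.12), and none fell. The early one was Dnaja4, a J-domain protein, at 1.14 (adjusted p = 0.0182, limma). The late ones were Bag3, which links Hsp70 to small heat shock proteins at the Z-disc, at 0.58 (adjusted p = 0.0031), Hspa4, a second Hsp110, at 0.47 (adjusted p = 0.00836), Hspa8, the constitutive Hsc70, at 0.37 (adjusted p = 0.0123) and Dnajb4 at 0.48 (adjusted p = 0.0126), by limma. Bag3 averaged 34982 ± 4320 in MKK3bE late females (SD, n = 2) and 46046 ± 4275 in MKK3bE late males (SD, n = 3), against 26151 ± 2165 in HRas-v12 late females and 28076 ± 7512 in HRas-v12 late males (SD, n = 3 each). Hsp90ab1, Ptges3 and Ppid were not analysed here.

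Against control, 3 of the 30 rose in MKK3bE hearts early, where 3.48% of all genes rose and 2.78% fell. Late 3 rose and 2 fell, where 5.06% of all genes rose and 5.39% fell. The 2 that fell are near the share of all genes. Hspa4 rose at both times, by 0.81 early (adjusted p = 0.0027) and 0.59 late (adjusted p = 0.000782) in limma. Bag2 (0.79, adjusted p = 0.0314) and Dnaja4 (0.80, adjusted p = 0.0418) rose early, and the Hsp70 nucleotide exchange factor Hspbp1 (0.53, adjusted p = 0.0071) and Dnajb6 (0.35, adjusted p = 0.0405) rose late. Bag1 (-0.35, adjusted p = 0.0396) and the Hsp90 co-chaperone Fkbp4 (-1.16, adjusted p = 0.0472) fell late, all by limma. In HRas-v12 hearts 4 of 30 rose and 12 fell early (list median -0.19), where 15.1% of all genes rose and 18.7% fell, and late none rose and 4 fell, where 4.86% rose and 4.66% fell. Early these included falls of Bag3 (-0.66), Dnaja4 (-0.71) and the Hsp70-interacting protein St13 (-0.36) and a rise of Hspa4 (0.55), with adjusted p of 0.000187 to 0.00185 by limma. The late falls were those of Dnajb5 (-0.65), the myosin chaperone Unc45b (-0.56), Chordc1 (-0.49) and Bag3 (-0.34), with adjusted p of 0.018 to 0.0455 by limma. None of the 30 was called in MKK7D hearts, where 0.135% of all genes were called early and 0% late.

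Of 5 other small heat shock proteins 4 were tested. In MKK3bE against HRas-v12, 1 of the 4 rose early (list median 0.53) and 2 rose late (list median 0.55), and none fell. There 1.35% of all genes rose and 0.451% fell early, and 2.04% rose and 1.92% fell late. Hspb6 (Hsp20) rose in MKK3bE against HRas-v12 by 0.85 early (adjusted p = 0.0411) and 0.57 late (adjusted p = 0.0144), and Hspb3 by 0.58 late (adjusted p = 0.0323) in limma. Against control, Hspb2, the neighbour of Cryab in the genome, rose in MKK3bE hearts by 0.65 early (adjusted p = 0.0118) and 0.38 late (adjusted p = 0.0165), and in HRas-v12 hearts by 0.47 early (adjusted p = 0.00107), by limma. In MKK3bE hearts 1 of the 4 rose at each time and none fell. There 3.48% of all genes rose and 2.78% fell early, and 5.06% rose and 5.39% fell late. In HRas-v12 early hearts Hspb6 (-0.70), Hspb8 (-0.75) and Hspb3 (-0.67) fell, with adjusted p of 0.000398 to 0.00204 by limma, and Hspb3 fell late (-0.48, adjusted p = 0.0401, limma). So 1 of the 4 rose and 3 fell early in HRas-v12 hearts (list median -0.69), where 15.1% of all genes rose and 18.7% fell. Late none rose and 1 fell, where 4.86% rose and 4.66% fell. The 1 that rose early is near the share of all genes. Cryaa was not analysed here.

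Chaperones of other compartments were read as well. Between MKK3bE and HRas-v12, none of 14 genes of the cytosolic chaperonin CCT and prefoldin was called at either time. Nor was any of 13 other mitochondrial chaperones and proteases or any of 14 endoplasmic reticulum chaperones. There 1.35% of all genes rose and 0.451% fell early, and 2.04% rose and 1.92% fell late. The absence of calls is near those shares. Against control, Cct8, a subunit of CCT, rose in MKK3bE hearts by 0.78 early (adjusted p = 0.00656) and 0.43 late (adjusted p = 0.0148), and 6 of the 14 rose in HRas-v12 early, led by Cct8 at 0.64 (adjusted p = 0.000168) in limma. In that last comparison 15.1% of all genes rose and 18.7% fell. For MKK3bE against control 3.48% of all genes rose and 2.78% fell early, and 5.06% rose and 5.39% fell late. No other mitochondrial chaperone or protease was called in MKK3bE hearts, while in HRas-v12 early hearts 2 rose, among them Grpel2 at 0.46, and 5 fell, among them Spg7 (-0.51), Clpp (-0.56) and Dnaja3 (-0.56). The 2 of 13 that rose are near the share of all genes. Late, 1 of the 13 fell in HRas-v12 hearts, Dnajc15 at -0.58 (adjusted p = 0.0277, limma), where 4.86% of all genes rose and 4.66% fell. Of the endoplasmic reticulum chaperones 6 rose in HRas-v12 early hearts, led by Pdia3 at 0.79 (adjusted p = 0.000164) and Manf at 0.98 (adjusted p = 0.000345) in limma, and 1 rose in MKK3bE late hearts, Creld2 at 0.74 (adjusted p = 0.0139, limma). In HRas-v12 late hearts Pdia3 rose (0.54, adjusted p = 0.0173) and Dnajb9 fell (-0.31, adjusted p = 0.0449) in limma. In late hearts against control each of these lists had at most 1 call in each direction, which is near the shares of all genes.

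The genes upstream of the chaperones were also read. Hsf2, a heat shock factor, was not called in any of the comparisons of lines or with control, and in MKK3bE against HRas-v12 it gave -0.85 early (adjusted p = 0.299) and -0.35 late (adjusted p = 0.458) in limma. Hsf1 was not analysed here. Of 9 genes of the p38 arm 8 were tested. In MKK3bE against HRas-v12, 1 of the 8 rose and 1 fell early, where 1.35% of all genes rose and 0.451% fell. Late 1 rose and 2 fell, where 2.04% of all genes rose and 1.92% fell. Mapk14, which encodes p38 alpha, fell in MKK3bE against HRas-v12 hearts by 0.87 early (adjusted p = 0.00421) and by 0.73 late (adjusted p = 8.78e-05) in limma. It averaged 7625 ± 247 in MKK3bE early females against 13934 ± 963 in HRas-v12 early females (SD, n = 2 each). Mapk12, which encodes p38 gamma, rose by 1.16 early (adjusted p = 0.00164) and 0.68 late (adjusted p = 0.00119), and Map2k6, the sister kinase of Map2k3, fell by 2.38 late (adjusted p = 0.000616), in limma. Against control, Map2k6 also fell in HRas-v12 early hearts (-1.92, adjusted p = 0.000608), as did Mapkapk5 (-0.95, adjusted p = 0.000618), while Map2k3 rose (0.57, adjusted p = 0.00166), in limma. That 1 of 8 rose and 2 fell is near the shares of all genes there, of which 15.1% rose and 18.7% fell. Mapk14, Map2k6 and Mapk12 were called against control in MKK3bE hearts at both times, Mapk14 at -0.93 early and -0.82 late, Map2k6 at -2.18 and -2.52 and Mapk12 at 0.83 and 0.61, with adjusted p of 1.65e-05 to 0.023 by limma. For MKK3bE against control 3.48% of all genes rose and 2.78% fell early, and 5.06% rose and 5.39% fell late. The array measures RNA, and no phosphorylation of Hspb1 or of p38 was read.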

How the data were processed

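Left ventricle RNA of mice was measured on 36 Affymetrix arrays. Per the submitters' processing notes MAS5 made the deposited intensity values, linear probe set signals, and its version is not given in the sources. A trimmed mean of 2500 on all arrays shows that 1 factor per array had been applied, and this scaling was kept. Of 45101 probe sets 34958 had 1 gene symbol in the platform annotation, and probe sets with several or none named no gene. Values were taken as log2(signal + 32). The brighter 60% of probe sets (mean log2 of at least 8.802) were kept, and the brightest per gene gave 12626 genes. limma 3.58.1 in R 4.3.3 (lmFit, eBayes with trend) fitted 13 group means over all arrays for 18 comparisons, and a gene was called at a Benjamini-Hochberg adjusted p under 0.05. The early comparison of MKK3bE with HRas-v12 used females, and the late one the mean of both sexes. Arrays limit precision by their number. The 10 genes, the gene lists and the tests were chosen with earlier results of these data known. All 10 genes are named, with, per list and comparison, up to 4 called genes of smallest adjusted p, Hsf1, Hsf2, Hspa8 and Hsp90ab1 always, and the 5 genes of most similar pattern.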

Additional observations from a re-analysis of the deposited data

How the results depend on the processing

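In MKK3bE against HRas-v12, 3 of the 10 genes were called early and 6 late. With the compared groups alone in the fit these became 0 and 3, and without the 6 arrays that go against their labels 6 early. Leaving out 1 array at a time gave 0 to 2 early and 2 to 6 late. Against control, the 4 early calls of MKK3bE became 2 without the filter, 2 without the intensity trend and 0 to 2 without single arrays. Its 2 late calls became 5 with quantile normalization, 4 with the mean of a gene's probe sets, 6 with the compared groups alone, 7 without the 6 arrays and 2 to 3 without single arrays. The 3 early calls of HRas-v12 became 1 without the filter, 5 without the 6 arrays and 0 to 4 without single arrays, and the 2 late calls became 1 with the mean of probe sets, 0 with the compared groups alone, 0 without the 6 arrays and 0 to 3 without single arrays. Without the 6 arrays 1 gene each was called in late MKK7D, in HRas-v12 late against early and in HRas-v12 against MKK7D late. MKK7D early gave 0 to 1 without single arrays. Quantile normalization reversed Hspb7 (0.24) and Cryab (0.19) in early HRas-v12 against control. Calls over all genes differed too. With the compared groups alone, MKK3bE against HRas-v12 called 1 of 12626 early and 181 late. MKK3bE late against control then called 2262, and HRas-v12 late against control 0. Against control, quantile normalization called 1348 in MKK3bE late, and the mean of probe sets 1163 there and 1116 in HRas-v12 late. Without the filter, the early fits called 680 (MKK3bE) and 4149 (HRas-v12) of 18193. Without the intensity trend MKK3bE early called 725. Over all alternatives 1156 values of a gene in a comparison stayed on their side of the threshold, 99 lost a call and 33 gained one. Another 2 changed direction with a call in at least 1 of the fits. A change of direction between fits that both made no call was counted among the 1156. Dnajb1 in MKK3bE against HRas-v12 early, for example, ran from -0.55 to 0.20. The cause was not tested. Of 23 same-numbered pairs 4 correlated over 0.1 (-0.343 to 0.125). With groups of 2 or 3 arrays these values cannot decide whether the numbers pair the arrays. With the replicate block, MKK3bE against HRas-v12 gave 2 calls early (Hspa1a, Hspa1b) and 3 late (Hspa1a, Hspa1b, Hsph1), so that Hspb1 was not called at either time. Early MKK3bE against control then gave 2, and HRas-v12 against control 0 early and 0 late. Of 12626 genes these fits called 178, 1856 and 0. The late comparison of MKK3bE with HRas-v12 called 205 with the block.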
